A study of Mus musculus with 8 samples.

Results

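The genes described here are the guanylin pathway and the channels and transporters that move anions and potassium across crypt epithelium. They were chosen by symbol for their place in the pathway: Guca2a, Guca2b, Gucy2c, Prkg2, Cftr, Kcnn4, Kcnq1, Slc4a4, Slc26a3 and Slc26a6. All 10 symbols were found among the 53801 genes of the count table, each with a single row. RNA was measured in Paneth cells that had been sorted from the small intestine by FACS as viable EpCAM+ Cd24+ cells, in 4 β-cateninGOF; Mll1+/- mice (controls 1 to 4) and 4 β-cateninGOF; Mll1-/- mice (knockouts 1 to 4). Recombined cells of all 8 mice carried the activated form of β-catenin and at least 1 deleted copy of Mll1. No wild-type sample is part of the comparison. Tamoxifen was injected on 3 consecutive days, 1 mg per injection according to the labels, in mice of 4 to 6 wk, and cells were taken 10 d later. Recombination was driven by Lgr5-CreERT2, a Cre expressed in crypt stem cells, which recombines some crypts and leaves others intact. The sort as described used no marker of recombination, so cells of intact crypts were not separated from recombined ones. From Mll1 staining of crypt sections, the paper reports loss of Mll1 throughout the crypt cells when they were sorted, Paneth cells included. The methods paragraph on the sorting names Mll1 floxed littermates without the β-catenin allele, and the groups here follow the labels. The comparison asks what the loss of the second Mll1 copy changes in Wnt-activated Paneth cells, and here how the genes of fluid and salt secretion fare in it.

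Guanylin and uroguanylin, the products of Guca2a and Guca2b, are small peptides that intestinal epithelial cells release into the lumen. They bind guanylate cyclase C, the product of Gucy2c, on the apical membrane, and the cyclic GMP it makes activates the kinase encoded by Prkg2, which opens the chloride and bicarbonate channel Cftr. Potassium channels such as Kcnn4 and Kcnq1 keep the membrane potential that drives anions out, Slc4a4 brings bicarbonate into the cell from the blood side, and Slc26a3 and Slc26a6 exchange chloride for bicarbonate at the lumen. Kcnn4 is also known for its part in the release of Paneth cell granules.

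The totals on genes were between 13557350 and 14380240 counts in the controls and between 13037832 and 13554171 in the knockouts. Levels are given as normalized CPM, counts scaled to a common library size after correction with edgeR's TMM factors, and 3 counts correspond to between 0.172 and 0.352 normalized CPM in a library. A limit drawn from a count covers counting error only, because PCR copies of a molecule were counted separately. It does not cover molecules lost from the small number of cells sorted into a tube. Knockout 3 stood apart from the other libraries. Genes with any count numbered 19662 there and between 22623 and 26074 elsewhere, and its TMM factor was 0.632, where the other 7 libraries had 0.822 to 1.34. Kmt2a, the gene of Mll1, received 268 to 719 counts in the controls and 328 to 523 in the knockouts. Its log2 fold change was −0.06 ± 0.24 (standard error) with an adjusted p of 0.995 in the quasi-likelihood test of edgeR. The count runs over all exons, and a loss of the floxed part alone cannot be read from it. All 11 Paneth cell markers of the list used had counts in every library, with a summed level from 320100 to 943500 normalized CPM. Of 7 immune markers, 5 had at most 3 counts in each library, Itgam had at most 14, and Ptprc, the gene of CD45, had 11 to 201.

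The ligands were by far the most abundant of these genes, so the sequence before their start sites is shown. Guca2a (chromosome 4 from 119637704 to 119639471, forward strand) and Guca2b (chromosome 4 from 119656607 to 119658954, reverse strand) are neighbours that point towards each other, with 17135 bases between them. The sequence before the start of Cftr is shown beside them as that of the anion channel at the end of the pathway. RefSeq's table for GRCm38.p6 has a start site for 7 of the 10 genes. Each line gives the 250 bases before the start, 5′ to 3′ on the strand of the gene, for Guca2a at chr4:119637482-119637731, for Guca2b at chr4:119658946-119659195 and for Cftr at chr6:18170437-18170686. RefSeq's starts lie slightly inside the Ensembl spans of both ligands, so the last bases of their windows fall within the Ensembl gene. Capitals mark matches on either strand to 6 motifs, and motifs were allowed to overlap. The letters searched were TATAAA for the box of the core promoter, CTTTGA for the core of Tcf and Lef sites and AGATAA for that of Gata sites. They were also TTTATG for the core of Cdx sites, GTTAAT as part of the site of Hnf1 and TGACG for the core of the cyclic AMP response element.
Guca2a: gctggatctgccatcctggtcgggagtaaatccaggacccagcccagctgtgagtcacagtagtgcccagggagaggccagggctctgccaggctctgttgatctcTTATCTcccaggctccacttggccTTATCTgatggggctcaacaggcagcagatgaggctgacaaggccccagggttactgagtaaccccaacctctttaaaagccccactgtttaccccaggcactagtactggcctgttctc
Guca2b: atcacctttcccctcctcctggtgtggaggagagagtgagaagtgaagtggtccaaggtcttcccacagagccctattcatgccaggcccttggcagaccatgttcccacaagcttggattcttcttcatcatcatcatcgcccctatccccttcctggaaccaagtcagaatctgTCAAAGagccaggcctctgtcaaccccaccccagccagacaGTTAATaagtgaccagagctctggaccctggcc
Cftr: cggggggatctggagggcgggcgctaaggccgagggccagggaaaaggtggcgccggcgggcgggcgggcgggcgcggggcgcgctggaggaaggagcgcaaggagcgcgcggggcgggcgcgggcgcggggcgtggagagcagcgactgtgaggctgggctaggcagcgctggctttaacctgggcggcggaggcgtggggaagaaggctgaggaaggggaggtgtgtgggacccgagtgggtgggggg
Over all windows of the same length in the table, before 32851 start sites, TATAAA was found in 12.4%, TTTATG in 10.8% and TGACG in 17.8%, and none of these was in the windows printed here. In the Guca2a window the letters AGATAA were found on the opposite strand at 2 places, from 144 to 139 and from 120 to 115 bases before the start. They occur in 9.99% of all windows. The Guca2b window held CTTTGA on the opposite strand from 74 to 69 bases before the start, letters found in 13.8% of all windows. It also held GTTAAT from 33 to 28 bases before the start, found in 6.43%. The Cftr window had none of the 6 motifs and a GC content of 76.4%, against 57.2% for Guca2a, 54.4% for Guca2b and a median of 52.4% over all windows. These are matches of letters, and binding was not measured.

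None of the 10 genes passed the limits used here in edgeR's test, nor in DESeq2's Wald test or limma-voom. A gene was called when its p adjusted over all genes was 0.05 or lower and its log2 fold change was 0.5 or more in either direction. All 10 genes passed the filter on low counts, and of the 13439 genes that did so 0.186% were called, 0.156% as higher and 0.0298% as lower in the knockouts. Without a limit on the fold change, 0 of the 10 passed an adjusted p of 0.1, against 0.283% of all genes. At an unadjusted p under 0.05, edgeR gave 0 of the 10 and DESeq2's Wald test also gave 0 (background 7.9%), while limma-voom gave 1, Gucy2c (background 12.1%). The background at this limit in edgeR was 6.88%, with 4.35% higher and 2.53% lower. In all 10 genes the range of the knockouts overlapped that of the controls, and over all tested genes 4.52% did not overlap. In the fit 7 of the 10 were lower and 3 higher in the knockouts, with a median log2 fold change of −0.32, where all tested genes had a median of 0.01. The median of the 10 was between −0.36 and −0.19 with a library left out. With plain library totals it was −0.07, with 6 lower and 4 higher, where all genes had a median of 0.25. An animal number is shared by the titles of control 4 and knockout 4, although their genotypes differ, and p-values measure the spread between these 8 libraries. In bulk samples fewer cells of a type and less RNA per cell cannot be told apart.

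**Figure D1:**
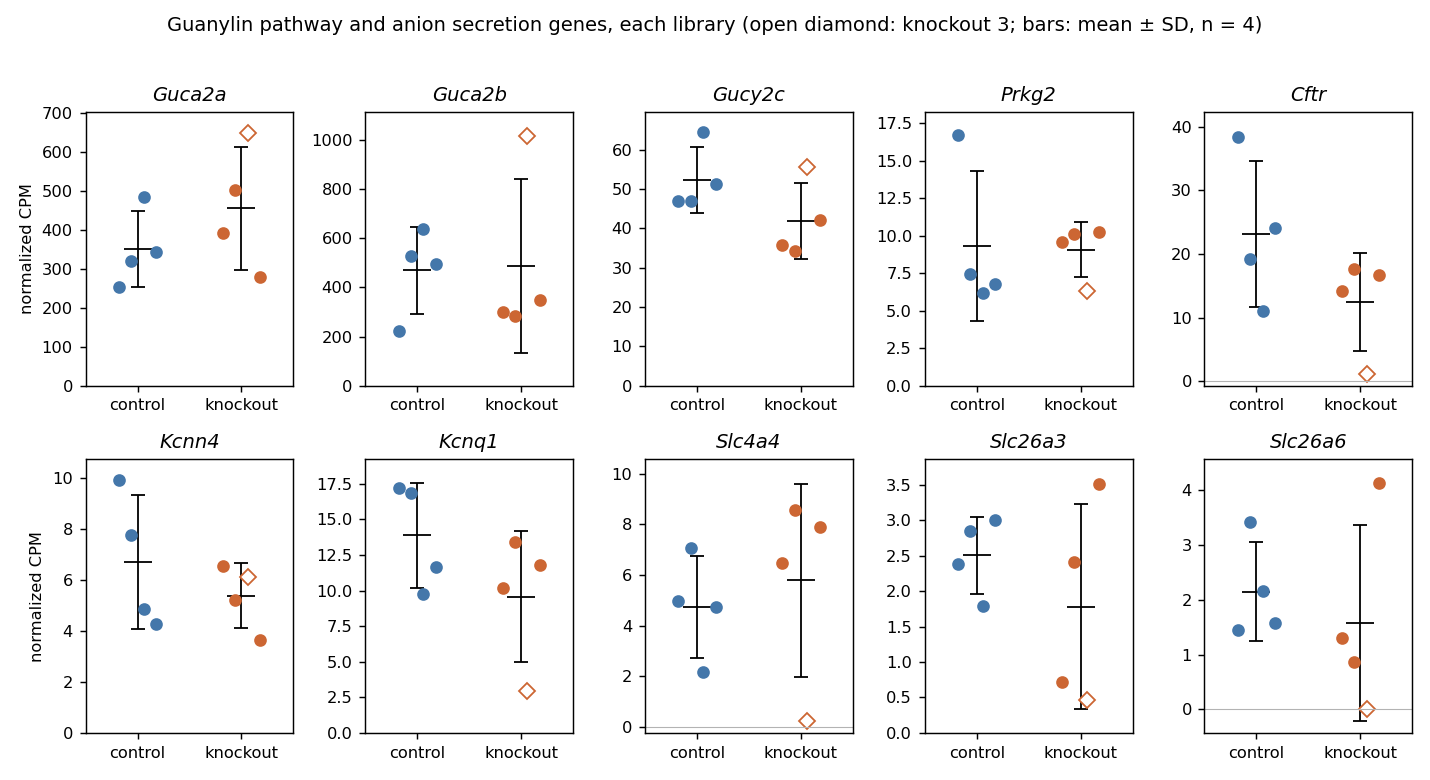
Normalized CPM (vertical axis, linear, a separate scale for each gene) in the 4 control and 4 knockout libraries. Points are libraries, the open diamond is knockout 3, and bars give the mean and SD of 4 libraries. The groups overlap in every panel, and knockout 3 is the highest library for Guca2a and Guca2b and the lowest for Cftr, Kcnq1, Slc4a4, Slc26a3 and Slc26a6.

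Guca2a and Guca2b were each at least 221 normalized CPM in every library. Guca2a had 253.5, 319, 485 and 343 normalized CPM in controls 1 to 4 and 390.3, 502, 648 and 279 in knockouts 1 to 4. The highest value was that of knockout 3 and the lowest that of control 1, while knockout 4 lay below 3 of the controls. This order depends on the scaling. With plain library totals knockouts 2 and 1 were highest, at 1130 and 841 CPM per kb of exon, and knockout 3 was at 690. Knockout 4, at 571, then lay above 3 of the controls. Controls averaged 350.2 ± 97.4 and knockouts 455 ± 158 (SD, n = 4 each). On the log2 scale the difference was 0.38 (95% interval −0.24 to 1.00, standard error 0.28, adjusted p = 0.902). Without knockout 3 it was 0.15, and it ranged up to 0.57 without control 3. The description numbers in the labels form 2 runs of consecutive numbers, and each run holds libraries of both genotypes: controls 1 and 2 with knockouts 1 and 2, and controls 3 and 4 with knockouts 3 and 4. Within these runs the difference in Guca2a was 0.64 and 0.06, and −0.55 in the second run without knockout 3. Guca2b had 221, 525, 636 and 497 normalized CPM in the controls and 299, 282, 1014 and 348 in the knockouts. Knockout 3 stood far above all other libraries, and the other knockouts lay between control 1 and the remaining controls. Mean levels were 469.7 ± 176 for controls and 486 ± 353 for knockouts. The fitted log2 change was 0.05 (standard error 0.44, 95% interval −0.91 to 1.01, adjusted p = 0.997). Without knockout 3 the mean of the knockouts was 309.7 ± 34.1, and the log2 fold change turned to −0.60 (95% interval −1.22 to 0.01, adjusted p = 0.456). The sign for Guca2b also turned without control 1, to −0.19.

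Both ligands were counted in the same libraries, so their ratio needs no scaling between libraries. There were 1.15, 0.608, 0.763 and 0.692 Guca2a counts for each Guca2b count in controls 1 to 4, and 1.30, 1.78, 0.638 and 0.802 in knockouts 1 to 4. Guca2a exceeded Guca2b in control 1 and in knockouts 1 and 2, and Guca2b exceeded Guca2a in the other 5 libraries. On the log2 scale the ratio averaged −0.36 ± 0.39 over the controls and 0.06 ± 0.67 over the knockouts (SD). The difference of 0.42 did not pass a two-sided exact permutation test over the 70 ways to assign the genotypes (p = 0.286, where the smallest possible p is 0.0286). Within the first run of description numbers the difference was 0.87 and within the second −0.02.

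Gucy2c (chromosome 6 from 136697284 to 136781765), the receptor of both peptides, was the steadiest of the 10 genes. It had 46.9, 46.9, 64.6 and 51.4 normalized CPM in controls 1 to 4 and 35.8, 34.3, 55.6 and 42.0 in knockouts 1 to 4. Knockouts 1, 2 and 4 were all below the lowest control, and knockout 3 lay above 3 of the 4 controls. With plain library totals this arrangement turned. Knockouts 1, 2 and 4 were then at 11.6, 11.6 and 12.9 CPM per kb of exon, above the lowest control (10.8). Knockout 3, at 8.87, was then below every control. Mean levels were 52.4 ± 8.39 for controls and 41.9 ± 9.67 (SD, n = 4 each) for knockouts. The fit gave a log2 fold change of −0.32 (standard error 0.20, 95% interval −0.75 to 0.10, adjusted p = 0.851), the lowest adjusted p among the 10 genes. Without knockout 3 the log2 fold change was −0.49 (standard error 0.16, 95% interval −0.85 to −0.13), with an unadjusted p of 0.0113 and an adjusted p of 0.261. The difference had the same sign within each run of description numbers, −0.41 in the first and −0.25 in the second. Over all alternative fits its log2 fold change stayed between −0.51 and −0.13, with adjusted p from 0.202 to 1.00, so the sign was the same throughout and the limit was not reached. Raw counts of Gucy2c ranged from 473 to 748 per library.

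Prkg2 (chromosome 5 from 98929773 to 99037351), the cyclic GMP-dependent kinase of type II, had 16.7, 7.46, 6.19 and 6.79 normalized CPM in the controls and 9.56, 10.1, 6.34 and 10.2 in the knockouts. Control 1 was the highest library by a wide margin, and 3 of the 4 knockouts lay above the other 3 controls. The log2 fold change was −0.04 (standard error 0.33, 95% interval −0.77 to 0.70, adjusted p = 0.997), and it was 0.42 without control 1 and 0.09 without knockout 3. Its sign thus turned without either of these libraries, and it also turned under plain library totals, to 0.19.

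Cftr (chromosome 6 from 18170687 to 18322768) had the widest difference of the 10 genes and one of the widest spreads. It had 38.4, 19.2, 11.04 and 24.1 normalized CPM in controls 1 to 4 and 14.2, 17.7, 1.18 and 16.7 in knockouts 1 to 4. Knockout 3 was at 10 counts, where the other 7 libraries had between 123 and 613, and the remaining knockouts fell inside the range of the controls. Mean levels were 23.2 ± 11.5 for controls and 12.4 ± 7.66 (SD, n = 4 each) for knockouts. The fitted log2 change was −0.88 (standard error 0.57, 95% interval −2.13 to 0.37, adjusted p = 0.878). Without knockout 3 the mean of the knockouts was 16.2 ± 1.80, with a log2 fold change of −0.52 (95% interval −1.24 to 0.19, adjusted p = 0.602), and without control 1 it was −0.52 as well. Of the exon bases of Cftr, 1.66% are shared with Gm15592, which is transcribed the other way.

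Kcnn4 (chromosome 7 from 24370263 to 24386690), the calcium-activated potassium channel of intermediate conductance, had 9.90, 7.78, 4.85 and 4.26 normalized CPM in the controls and 6.53, 5.22, 6.11 and 3.64 in the knockouts. Unlike Cftr, it was not low in knockout 3, which had the second highest value among the knockouts. Mean levels were 6.70 ± 2.63 for controls and 5.38 ± 1.28 for knockouts. The fit gave a log2 fold change of −0.32 (standard error 0.33, 95% interval −1.05 to 0.40, adjusted p = 0.943), and it ranged from −0.49 without control 4 to −0.07 without control 1. Within the first run of description numbers the difference was −0.55 and within the second 0.05, and −0.29 in the second without knockout 3.

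Kcnq1 (chromosome 7 from 143106362 to 143427042) lies in an imprinted cluster and shares 2.96% of its exon bases with Kcnq1ot1 on the other strand. It had 17.2, 16.8, 9.78 and 11.7 normalized CPM in the controls and 10.2, 13.4, 2.94 and 11.8 in the knockouts. Knockout 3 was again the lowest library, and the other knockouts lay within the range of the controls. On the log2 scale the difference was −0.52 (standard error 0.38, 95% interval −1.35 to 0.31, adjusted p = 0.897), and −0.24 without knockout 3 (95% interval −0.75 to 0.27).

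**Figure D2:**
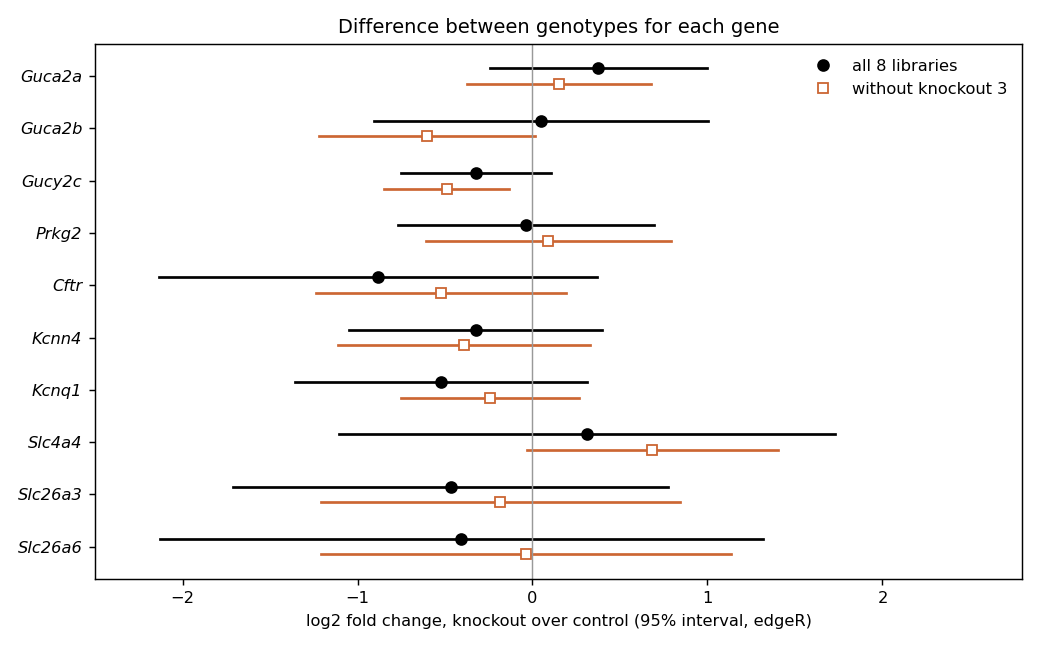
Log2 fold change of each gene, knockout over control (horizontal axis), with its 95% interval from edgeR, for all 8 libraries (filled circles) and without knockout 3 (open squares). With all libraries every interval includes 0. Without knockout 3 the interval of Gucy2c, −0.85 to −0.13, excludes 0 before adjustment for the number of genes tested. The interval of every gene except Kcnn4 is then narrower.

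The bicarbonate and chloride transporters had few counts. Slc4a4 (chromosome 5 from 88886818 to 89239653), the basolateral sodium bicarbonate cotransporter, had 4.95, 7.06, 2.15 and 4.74 normalized CPM in the controls and 6.47, 8.56, 0.235 and 7.88 in the knockouts. Knockout 3, with 2 counts, was far below every other library, while knockouts 2 and 4 were above every control. The log2 fold change was 0.31 (standard error 0.65, 95% interval −1.11 to 1.73, adjusted p = 0.985), and 0.68 without knockout 3 (standard error 0.33, 95% interval −0.03 to 1.40, adjusted p = 0.472). It was close to 0 without knockout 2 (0.069) or control 3 (0.072), 0.13 without knockout 4 and 0.56 without control 2. It is the only one of the 10 genes, apart from the ligands, for which the fit with all libraries placed the knockouts higher.

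Slc26a3 (chromosome 12 from 31390871 to 31473917), the chloride bicarbonate exchanger typical of absorptive cells, had between 20 and 38 counts in a control and 12, 42, 4 and 58 counts in knockouts 1 to 4. Controls averaged 2.51 ± 0.544 normalized CPM and knockouts 1.78 ± 1.45 (SD, n = 4 each). The fit gave a log2 fold change of −0.47 (95% interval −1.71 to 0.78, adjusted p = 0.96), and it ranged from −1.02 without knockout 4 to −0.18 without knockout 3. Slc26a6 (chromosome 9 from 108853283 to 108913049), a related exchanger, had 23, 43, 24 and 20 counts in the controls and 22, 15, 0 and 68 in the knockouts. The 0 counts in knockout 3 allow up to 3 counts there, or 0.352 normalized CPM, which is below the lowest level of the other libraries, 0.861. Its log2 fold change was −0.41 (95% interval −2.13 to 1.32, adjusted p = 0.982), and it ranged from −1.47 without knockout 4 to −0.03 without knockout 3. For both exchangers knockouts 3 and 4 marked the ends of the range, and the intervals are wide. In counts the knockouts lay further apart than the controls for both exchangers.

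In normalized CPM the ligands and their receptor were above, and most channels and transporters below, the mean of each gene in knockout 3. With plain library totals Gucy2c was instead lowest in knockout 3, at 8.87 CPM per kb of exon against 10.8 to 13.6 elsewhere. Guca2b was still highest there (737), and Guca2a was below knockouts 1 and 2 (690 against 841 and 1130). On log2 normalized CPM with 0.5 added, knockout 3 lay 0.75 above the gene's own mean for Guca2a, 1.25 above for Guca2b and 0.26 above for Gucy2c. Relative to the mean it was at −3.09 for Cftr, −2.67 for Slc4a4, −1.99 for Slc26a6, −1.70 for Kcnq1 and −1.30 for Slc26a3. Kcnn4 (0.07) and Prkg2 (−0.43) were closer to their means. Summed marker levels of knockout 3 were at an end of the range for some cell types. Its Paneth markers summed to 943500 normalized CPM, those of the other knockouts to between 320100 and 417000 and those of the controls to between 347200 and 677400. Stem cell markers summed to 239 there, while the remaining knockouts had 539 to 864 and controls 614 to 1303, and without Olfm4 to 136, 162 to 178 and 152 to 192. Enterocyte markers summed to 117, while the remaining knockouts had 240 to 333 and controls 215.9 to 409.7. Goblet markers summed to 19080, while the remaining knockouts had 7926 to 10540 and controls 9311 to 17820. These sums depend on the scaling. In plain CPM per kb of exon Defa24, the largest Paneth marker, was at 771100 in knockout 3, within the controls (550600 to 779400). Defa30, the next largest, was at 324200, above the controls (227900 to 291200). Spink4, the largest goblet marker, was at 19800, within the controls (15270 to 23190). Knockout 3 lay within the range of the other knockouts for the enteroendocrine (135) and tuft cell markers (69.7). The part of these cell types in the values of the 10 genes was not tested.

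**Figure D3:**
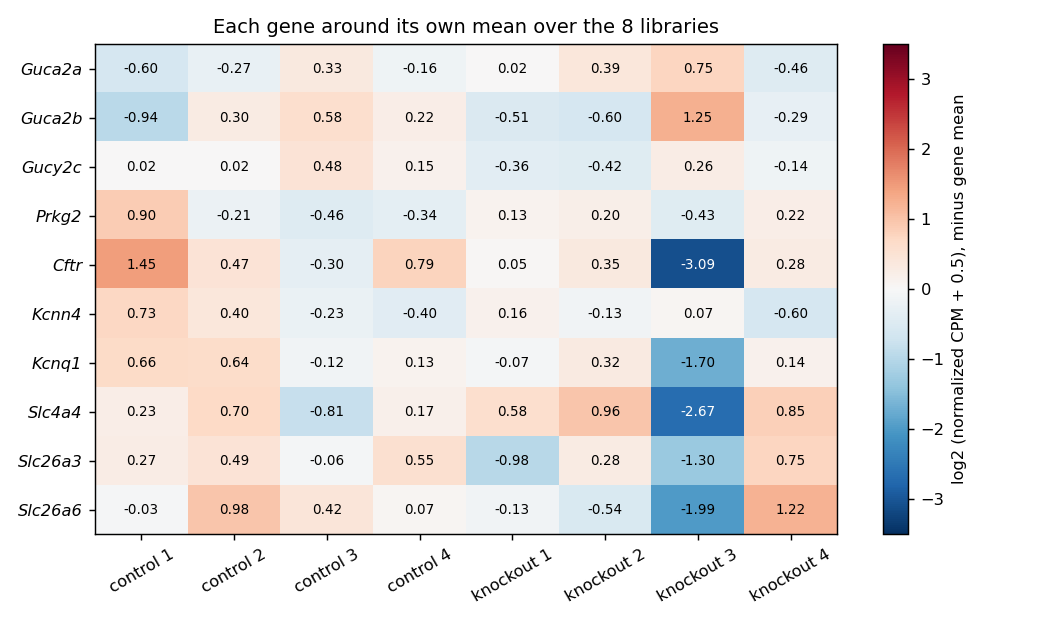
Log2 of normalized CPM plus 0.5, minus the mean of the gene over the 8 libraries, for each gene (rows) and library (columns). Red is above and blue below the mean of the gene. The column of knockout 3 runs from 1.25 for Guca2b to −3.09 for Cftr, while the other columns stay between −0.98 and 1.45.

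The profile of Guca2b over the libraries was close to that of Paneth cell products. Likeness was measured as the root mean square gap between 2 genes in their log2 levels around their own means over the 8 libraries, a description with no test, and the libraries share depth and scaling. The genes with the smallest gap to Guca2b were Gm6054 (0.139) and the defensin pseudogene Defa-ps7 (0.141). Its median gap to the 11 Paneth markers was 0.278, against 0.472 to 9 goblet markers and 0.862 to 6 stem cell markers, and without knockout 3 the gap to the Paneth markers was 0.292. Guca2a did not share this: its median gap was 0.481 to the Paneth and 0.462 to the goblet markers, and its closest genes were Apobec3 (0.141) and B3galnt2 (0.148). The gap between Guca2a and Guca2b themselves was 0.520. Gucy2c was closest to Fchsd2 (0.0797) and Fsd1l (0.0913), Prkg2 to Pde7a (0.140) and Gm12216 (0.141), and Kcnn4 to Cpne3 (0.127) and Ncoa3 (0.137).

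Without knockout 3, 6 of the 10 genes had their smallest median gap to the stem cell markers. These were Gucy2c (0.358), Kcnq1 (0.362), Prkg2 (0.466), Cftr (0.469), Slc26a3 (0.513) and Slc4a4 (0.665). For Gucy2c the goblet (0.374) and Paneth (0.375) markers were almost as near. The gap of Cftr was 0.724 to the enterocyte, 0.782 to the tuft, 0.783 to the goblet and 0.835 to the Paneth markers. With all 8 libraries only Kcnq1, Prkg2 and Slc26a3 of these 6 were nearest to the stem cell markers, together with Kcnn4 and Slc26a6. Gucy2c was then nearest to the goblet markers (0.410, stem 0.414). Cftr (0.984, stem 1.084) and Slc4a4 (0.964, stem 1.026) were nearest to the single immune marker tested, Ptprc. The gap is not scaled to how much a gene varies. For Prkg2 the stem gap over all 8 libraries was 0.480, above the gene's own root mean square around its mean (0.430). The same held for Kcnn4 (0.552 against 0.405) and Gucy2c (0.414 against 0.2855). A flat profile would be nearer to these genes than the stem cell markers were. For Kcnq1, Slc26a3, Cftr, Slc4a4 and Slc26a6 the stem gap was below that root mean square. Kcnq1 without knockout 3 was at 0.630 to both the enterocyte and Paneth markers, 0.619 to the goblet and 0.639 to the tuft cell markers. The gene with the smallest gap to Cftr over all 8 libraries was Fzd5 (0.201), a Wnt receptor of the crypt, followed by Gm45912 (0.272). Kcnq1 was closest to Chmp6 (0.150) and Patj (0.167), and Slc4a4 to Rap2a (0.170) and Net1 (0.325). For the exchangers, the closest genes were Fam53b (0.215) and Adat1 (0.269) for Slc26a3 and Sesn1 (0.300) and Adam15 (0.312) for Slc26a6. Of the 45 pairs among the 10 genes, the closest over all 8 libraries was Prkg2 with Kcnn4, at 0.434. Without knockout 3 it was Kcnn4 with Kcnq1, at 0.316, and Prkg2 with Kcnn4 was at 0.416.

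Levels can be compared between genes only per length, and per kb of exon the ligands stood far above the rest. Guca2a was at 678 ± 225 and Guca2b at 549 ± 297 normalized CPM per kb (SD, n = 8 libraries), at percentiles 99.6 and 99.5 of the tested genes. The 2 ligands took between 77.5% and 95.8% of the counts of the 10 genes in a library, and the 10 genes together between 0.0704% and 0.117% of all counts. Guca2a was above Guca2b in 6 of 8 libraries, and their ranges overlapped, so the order of these neighbours does not hold beyond their spread. Gucy2c followed at 11.9 ± 2.55, 46.1-fold below Guca2b and above Kcnq1 in all 8 libraries.

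Kcnq1 (2.86 ± 1.10 normalized CPM per kb), Cftr (2.29 ± 1.38), Prkg2 (1.71 ± 0.649) and Kcnn4 (1.18 ± 0.399) formed the middle of the order, and each exceeded the next in 6 or 7 of 8 libraries, with overlapping ranges. Kcnn4 was above Slc4a4 in 7 of 8 libraries. Slc4a4 (0.486 ± 0.266), Slc26a6 (0.344 ± 0.248) and Slc26a3 (0.336 ± 0.170) were lowest and did not differ from each other beyond their spread. With plain CPM in place of normalized CPM the order of the 10 genes was the same.

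**Figure D4:**
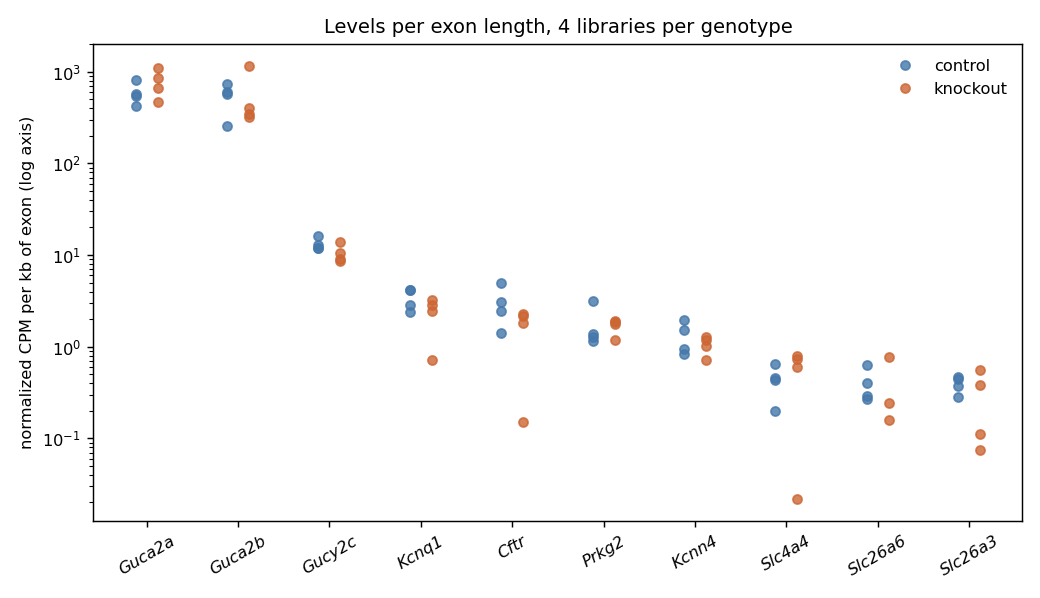
Normalized CPM per kb of exon on a log axis for each gene, ordered by its mean over 8 libraries. Points are libraries, controls at the left and knockouts at the right of each gene, and the 0 counts of Slc26a6 in knockout 3 are not drawn. Guca2a and Guca2b lie above 254 in every library, Gucy2c between 8.67 and 16.3, and the other 7 genes below 5.

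The wider machinery was read from 5 lists with 63 genes, of which 46 were tested. In edgeR's test 0 of the 46 passed the limits of an adjusted p of 0.05 and a log2 fold change of 0.5, against 0.186% of all tested genes, and the lowest adjusted p was 0.468. DESeq2's Wald test (background 1.03%) and limma-voom (background 0.752%) also gave 0. At an unadjusted p under 0.05 there were 6 in edgeR (background 6.88%), 6 in DESeq2 (background 7.9%) and 7 in limma-voom (background 12.1%). In normalized CPM the groups did not overlap in 3 of the 46, Slc12a2, Stk39 and Prkar2a, against 4.52% of all tested genes. In the fit 33 of the 46 were lower and 13 higher in the knockouts, with a median log2 fold change of −0.12. This split depends on the scaling: with plain library totals, where the median of all tested genes was 0.25, 15 were lower and 31 higher, with a median of 0.07, still under that of all genes.

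Of 17 genes of ion and water transport tested, 12 were lower and 5 higher, with a median of −0.14. Slc12a2, the cotransporter that loads chloride into secreting cells from the blood side, had 253, 137, 131 and 211.5 normalized CPM in the controls and 104, 120.0, 62.7 and 121 in the knockouts. In normalized CPM every knockout lay below every control, while with plain library totals the groups overlapped. On the log2 scale the difference was −0.85 (standard error 0.27, 95% interval −1.44 to −0.25, unadjusted p = 0.00903, adjusted p = 0.468), and −0.68 without knockout 3 (adjusted p = 0.258). Within the 2 runs of description numbers the difference was −0.73 and −0.93, and −0.46 in the second without knockout 3. It passed both limits only in the fit without a filter on low counts, with an adjusted p of 0.00879. Slc12a2 is also known as abundant in crypt base stem cells, and the summed stem cell markers were between 614 and 1303 normalized CPM in the controls and between 239 and 864 in the knockouts. Most of that sum was Olfm4, except in knockout 3, where it was 103 of 239. Without Olfm4 the ranges were 152 to 192 and 136 to 178, with Lgr5 at a log2 fold change of 0.04. The part of these cells in the value was not tested. Slc9a2, a sodium hydrogen exchanger, was at −1.20 on the log2 scale (adjusted p = 0.849).

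Among 6 scaffolds and regulators tested, 5 were lower. Stk39, a kinase that activates Slc12a2, had 20.2 to 31.3 normalized CPM in the controls and 12.4 to 19.5 in the knockouts, which did not overlap. With plain library totals the groups overlapped for Stk39. Its log2 fold change was −0.60 (standard error 0.21, adjusted p = 0.531), and −0.48 without knockout 3. Shank2, a scaffold of the apical membrane, was at −0.46 (adjusted p = 0.916). Among 9 calcium-activated channels and calcium release genes tested, 7 were lower, with Calm3 at −0.40 (adjusted p = 0.664) and the calcium release channel Itpr2 at −0.70 (adjusted p = 0.686). The relatives of Kcnn4, Kcnn1, Kcnn2 and Kcnn3, had at most 8 counts in a library. Among 5 secretagogue receptors tested, Chrm1 and F2rl1 had the lowest p, with log2 fold changes of 0.61 (adjusted p = 0.915) and −0.29 (adjusted p = 0.968), and of 0.50 and −0.06 without knockout 3.

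Of the cyclic nucleotide genes 9 were tested, 4 higher and 5 lower, with a median of −0.02. Abcc4, a pump that exports cyclic GMP and cyclic AMP, had 2.95, 4.84, 4.76 and 4.50 normalized CPM in the controls and 13.8, 12.5, 4.82 and 5.40 in the knockouts. Knockouts 1 and 2 were far above all other libraries, and knockout 3 was inside the range of the controls. The fitted log2 change was 1.11 (standard error 0.38, adjusted p = 0.505), and 1.31 without knockout 3 (adjusted p = 0.0997), where Abcc4 was the only pathway gene under an adjusted p of 0.1. The difference was 1.67 within the first run of description numbers and 0.13 within the second. Prkar2a, a regulatory subunit of protein kinase A, was below every control in every knockout in normalized CPM. Its log2 fold change was −0.43 (adjusted p = 0.624, standard error 0.17). With plain library totals knockouts 1 and 2 lay above every control for Prkar2a. The soluble guanylate cyclase subunits Gucy1a1 and Gucy1b1 had at most 6 and 1 counts in a library, and Prkg1, the other cyclic GMP-dependent kinase, at most 7. Npr1, a guanylate cyclase of the membrane, had 2 to 19. Of the guanylate cyclases and cyclic GMP-dependent kinases read here, Gucy2c and Prkg2 thus had the most counts.

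**Figure D5:**
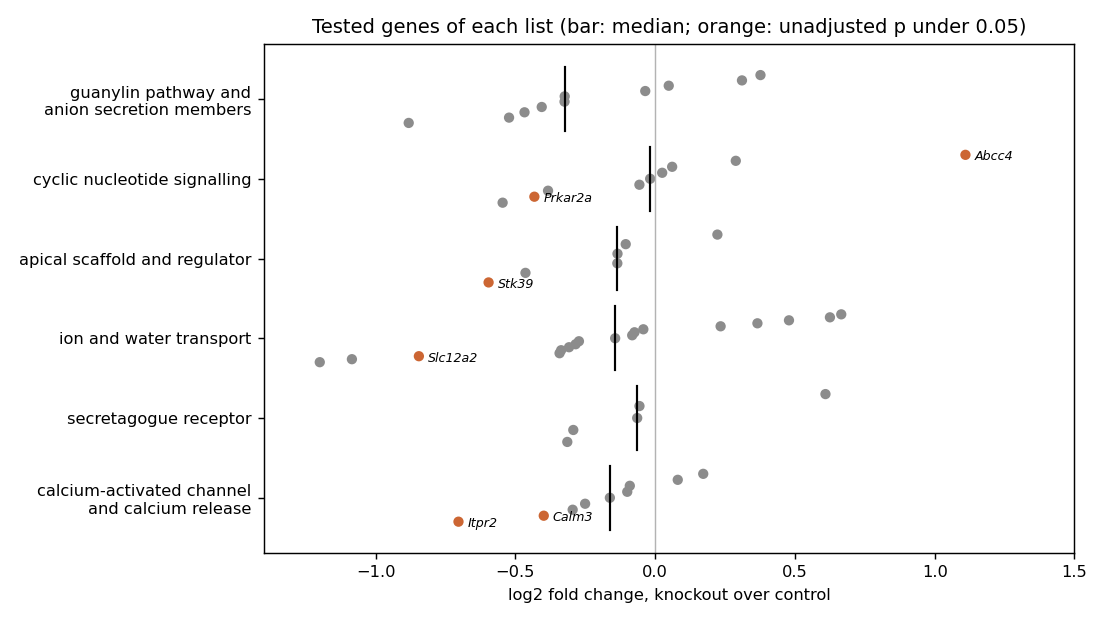
Log2 fold change, knockout over control (horizontal axis), of the tested genes of each list; points are genes, bars are list medians and orange marks an unadjusted p under 0.05 in edgeR. The medians run from −0.32 for the 10 guanylin and anion secretion genes to −0.02 for the cyclic nucleotide genes. Orange genes are Abcc4 to the right of 0, and Prkar2a, Stk39, Slc12a2, Calm3 and Itpr2 to the left.

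Markers of other epithelial cells that the EpCAM and Cd24 gate could hold were present, and 0 genes of any list passed the limits. All 9 enteroendocrine markers were lower in the knockouts, with a median log2 fold change of −1.96, and 6 had an unadjusted p under 0.05, where all tested genes had 6.88%. The lowest adjusted p was 0.0629, for Neurod1. Their sum was between 633 and 787 normalized CPM in the controls and between 43.7 and 612 in the knockouts, without overlap. Sst alone was at 472 in control 1, where the sum was 633, and Sst itself overlapped between the groups. It was at 0.121 in knockout 4, where the sum was 179, so without Sst the sums would overlap. The summed tuft cell markers ranged from 120 to 343 in the controls and from 59.0 to 228.5 in the knockouts, and all 5 tested were lower, with a median of −0.94. The 9 tested enterocyte markers had a median of −0.72, with 7 lower and 4 at an unadjusted p under 0.05. In normalized CPM Fabp2 and Vil1 were below every control in every knockout, where 4.52% of all tested genes did not overlap. With plain library totals both overlapped. Fabp2 was then at 35.86 CPM per kb of exon in knockout 4, with controls from 28.1. Vil1 was at 21.75 in knockout 1, with controls from 15.43. Of 6 stem cell markers 5 were lower and 2, Olfm4 and Ascl2, had an unadjusted p under 0.05, with a median of −0.26. The 9 goblet markers had a median of 0.10, and the 2 with an unadjusted p under 0.05 were lower, Fcgbp and Zg16. Control 3 was far above the other controls in both, at 266 normalized CPM for Fcgbp against 17.9 to 87.4, and at 303 for Zg16 against 1.51 to 49.4. The 11 Paneth markers had a median of −0.09, and 0 had an unadjusted p under 0.05. No enteroendocrine marker was at 0 in all libraries. The part of these cells in the levels of the 10 genes was not tested.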

How the data were processed

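RNA-seq libraries of FACS-sorted Paneth cells from 8 mice, 4 per genotype, were prepared with Smart-seq2. The input was a small, counted number of cells sorted into a tube. The authors aligned reads to mm10 with GSNAP and counted uniquely mapped reads on Ensembl release 92 genes with featureCounts 1.6.3, and the submitters' processing notes also name bcl2fastq 2.19.1. The deposited values are raw counts per gene, without normalization, and the deposited exon length of each gene is in bases. Libraries held between 13037832 and 14380240 counts on genes. The strand setting is not given in the sources used here, so exon overlap was computed for either strand. Samples were grouped by the genotype in the labels, and replicate numbers only name samples. Symbols were matched by identifier for 53620 of 53801 genes, and 92 spike-in rows, with at most 7 counts, were left out.

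In R 4.3.3 with edgeR 4.0.16, TMM factors and robust quasi-likelihood fits were computed on 13439 genes passing filterByExpr (minimum count 10, minimum total 15), with Benjamini-Hochberg adjustment over all of them. Standard errors are the size of the log2 fold change over the root of its F statistic. Every pair of libraries differed by more than sampling noise (chi-square over its degrees of freedom at least 10.8). DESeq2 1.42.0, limma 3.58.1, other scalings, filters and limits, and each library left out were alternatives, and the functions were tested on simulated data.

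The genes and lists were chosen with earlier results of these data known. Named beside the 10 genes are, for each list, the 2 genes with the lowest p and any past the limits, and for each of the 10 the 2 genes of nearest profile. Gaps to marker lists and between the 10 genes, and the stem cell sum without Olfm4, were added after values were seen, and so were the other genes named for their few or many counts. Sequences are from RefSeq, GRCm38.p6, and the downstream bases of each window were checked against GENCODE M21 transcripts.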

Additional observations from a re-analysis of the deposited data

Results flagged for a closer look

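In the 20 groups formed by 10 genes and 2 genotypes, the highest or lowest of the 4 libraries was compared with the rest, and chance sets a library apart in about 1 of 20 groups. Guca2b had knockout 3 apart from the other knockouts, at 1014 normalized CPM against 282 to 348, a gap of 0.91 of the whole range. Prkg2 had control 1 apart from the other controls, at 16.7 normalized CPM against 6.19 to 7.46, a gap of 0.88 of the range. Both gaps are above the 95% limit of Dixon's test for 4 libraries, and no cause was tested.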

How the results depend on the processing

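None of the 10 genes passed both limits in any of the 8 alternative fits or the 8 that left out a library. The number of called genes over all tested genes was 25, and it was 15 with plain library totals, 290 without a filter, 13 with at least 10 counts in every library, 138 with DESeq2's Wald test and 101 with limma-voom. It was 38 at an adjusted p of 0.1 and 924 at an unadjusted p under 0.05, and it ranged from 10 (without control 3) to 152 (without knockout 3) with a library left out. It was also under 25 by over 1.5 times without control 1 (11), control 2 (12), control 4 (15) or knockout 2 (11). Of the pathway lists, 1 gene passed without a filter, 6 had an unadjusted p under 0.05, and 0 passed with any library left out. Guca2b reversed with limma-voom (−0.55) and with the run of description numbers as a block (−0.047), and ranged from −0.60 to 0.24 with a library left out. Prkg2 reversed with plain totals (0.19), limma-voom (0.27) and the block (0.022), and ranged from −0.19 to 0.42. The cause was not tested. The other 8 genes kept their sign in every fit: 148 alternative values over the 10 genes kept the sign and the side of the limits, and 9 turned. The ligand ratio difference ranged from 0.17 to 0.66. No paired analysis was possible because the labels of the 2 groups share only 1 number. Slc26a3, Slc26a6 and Slc4a4 could not be fitted with at least 10 counts in every library, and each had at most 149 counts in a library.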

Other observations

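Of the 63 genes in the wider lists 17 did not pass the filter, and 8 of these had at most 3 counts in every library. Among the receptors through which secretagogues act, Chrm3, the muscarinic receptor of acetylcholine, had 69 to 110 counts in every library, while Casr, Sctr and P2ry2 had at most 2, 1 and 3. Aqp8 and Aqp3 had at most 1 and 3 counts, whereas the water channel Aqp1 had between 146 and 229. Ptger2 had 13 counts in knockout 3 and 0 in the other 7 libraries.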
